A study of Mus musculus with 12 samples.

Results

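The 10 genes described here encode heavy chains, the light chain, the peptide transporter, a loading factor, a trimming enzyme and the transactivator of MHC class I antigen presentation. They were taken by gene symbol from an RNA-seq table of 23224 mouse genes: H2-K1, H2-D1, H2-Q7, H2-T23, B2m, Tap1, Tap2, Tapbp, Nlrc5 and Erap1. All 10 were among the 12335 genes that passed a filter on low counts. RNA came from mouse pre-B leukemia cells (acute lymphoblastic leukemia, a cancer of early B-lineage cells), with and without Phf6, which encodes a chromatin-associated protein. Cells of all groups came from the C57BL/6J strain, were transformed by the BCR-ABL1 fusion kinase and were null for p19, a tumor suppressor product of the Cdkn2a locus. There were 4 groups of 3 libraries each: Phf6 null cells made with guide RNA sg4 (KO_sg4), Phf6 null cells made with guide RNA sg1 (KO_sg1), cells in which a short hairpin (shRNA) targets Phf6 (KD), and Phf6 wild-type cells (WT). Nothing in the labels says that replicates stem from different cultures or clones. The p-values therefore reflect only the scatter among these libraries, which may be technical.

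Levels are counts relative to the library total (CPM) after TMM scaling, a factor per library that corrects for composition. Differences are log2 fold changes ± standard error from edgeR's quasi-likelihood test, with Benjamini-Hochberg adjustment over all 12335 genes, and a gene was called higher or lower at an adjusted p below 0.05. Library totals ran from 20382328 to 36032369 estimated counts, so that 3 counts in a library equal 0.0833 to 0.147 CPM. These limits cover counting error only.

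Phf6 stood at 36.6 ± 7.37 CPM in KO_sg4, 3.40 ± 0.288 CPM in KO_sg1, 8.78 ± 0.429 CPM in KD and 34.5 ± 0.750 CPM in WT (SD, n = 3). KO_sg4 against WT gave a log2 fold change that did not pass the test (0.095 ± 0.11, adjusted p = 0.527), so the null state of the libraries labelled KO_sg4 rests on their label. Counts of 3 genes on the Y chromosome (Ddx3y, Kdm5d, Uty) summed to 1 to 4 in KO_sg4 libraries, 1 to 3 in KO_sg1, 2771 to 3264 in KD and 2259 to 2285 in WT. Loss of Phf6 and absence of Y-linked transcripts therefore cannot be told apart in the KO comparisons. Replicate 1 of KO_sg4 had the lowest H2-K1, H2-D1, H2-T23, B2m, Tap1, Tap2 and Tapbp of its group, and calls that turn on it are given with and without it. The summed level of 8 pre-B markers was 4745 to 6184 CPM in KO_sg4, 5691 to 6378 CPM in KO_sg1, 14202 to 14736 CPM in KD and 5922 to 6333 CPM in WT. Singly they went both ways in KO. Averaged over both guides, 4 of the 8 were higher and 3 lower than in WT, against 17.7% and 23.8% of all genes. For each guide alone 3 were higher and 3 lower. In KD 6 were higher and 0 lower, against 37.2% and 40.4% of all genes. The macrophage markers in the table, 5 in number, summed to 7.28 to 8.50 CPM in KO_sg4, 5.19 to 6.92 CPM in KO_sg1, 86.9 to 89.9 CPM in KD and 27.3 to 28.4 CPM in WT. All 4 that were tested (Csf1r, Lyz2, Itgam and Fcgr1) were higher in KD than in WT, against 37.2% of all genes. Averaged over both guides all 4 were lower in KO, against 23.8%, and all 4 were lower with each guide alone. Of 4 dendritic-cell markers, 3 were higher in KD and 2 lower in KO. They summed to 0.372 to 0.880 CPM in KO_sg4, 0.279 to 0.606 CPM in KO_sg1, 3.47 to 4.24 CPM in KD and 0.858 to 1.09 CPM in WT. The part of both lists in the class I results was not tested. The NK-cell markers Ncr1 and Nkg7 were at 0 in all 12 libraries, while the 4 markers of that list summed to 10.7 to 12.2 CPM in KO_sg4, 2.51 to 3.35 CPM in KO_sg1, 13.9 to 15.1 CPM in KD and 1.61 to 2.19 CPM in WT. Klrd1 averaged 7.60 ± 0.557 CPM in KO_sg4, 2.10 ± 0.459 CPM in KO_sg1, 13.8 ± 0.741 CPM in KD and 1.74 ± 0.245 CPM in WT, and was called higher than WT in KO_sg4 and KD. Klrb1c averaged 3.92 ± 0.386 CPM in KO_sg4, 0.887 ± 0.278 CPM in KO_sg1, 0.630 ± 0.147 CPM in KD and 0.110 ± 0.0810 CPM in WT, and was called higher than WT in all 3 groups. The part of these genes in the class I results was not tested either. In bulk RNA fewer cells of a type and less RNA per cell cannot be told apart.

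MHC class I molecules show peptides from inside the cell to cytotoxic T cells. Proteasomes cut proteins into peptides, the TAP transporter carries these into the endoplasmic reticulum, tapasin holds empty class I molecules beside TAP until a peptide is loaded, and ERAP1 trims peptides that are too long. A class I heavy chain is stable at the surface as a complex with beta-2-microglobulin and a peptide. H2-K1 and H2-D1 are classical, highly variable heavy chains, whereas H2-Q7 (a Qa-2 gene) and H2-T23 (Qa-1) encode nonclassical chains. Qa-1 is a ligand of the inhibitory CD94 and NKG2A receptor of NK cells. NLRC5 is a transactivator that acts at class I promoters through a module bound by RFX, CREB or ATF, and NF-Y factors. H2-K1, H2-D1, H2-Q7, H2-T23, Tap1, Tap2 and Tapbp lie on chromosome 17, B2m on chromosome 2, Nlrc5 on chromosome 8 and Erap1 on chromosome 13.

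Promoter windows of 4 genes are shown. Those of H2-K1 and H2-Q7 are alike although the genes differed in the KO cells. That of B2m holds an exact match to an interferon-type element, and that of Tap1 is shared with a proteasome gene. The sequences are those of RefSeq for GRCm38.p6, written 5′ to 3′ on the strand of the gene from 250 bases before to 50 bases after its annotated start; RefSeq windows were matched for 8 of the 10 genes. Capitals mark matches on either strand to CCAAT (the box bound by NF-Y), TGACG (the half-site of a cAMP response element), GGGNNTTCC (an NF-kB type site) and GAAA repeated after 2 bases of any kind (the core of an interferon-stimulated response element).
H2-K1 (chr17:34000298-34000597, minus strand): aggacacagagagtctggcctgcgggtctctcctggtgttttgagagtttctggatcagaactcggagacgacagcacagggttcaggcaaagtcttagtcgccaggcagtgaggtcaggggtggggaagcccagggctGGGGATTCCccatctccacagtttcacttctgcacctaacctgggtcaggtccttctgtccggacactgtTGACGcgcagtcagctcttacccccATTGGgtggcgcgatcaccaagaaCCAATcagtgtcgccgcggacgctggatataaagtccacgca
H2-Q7 (chr17:35438905-35439204, plus strand): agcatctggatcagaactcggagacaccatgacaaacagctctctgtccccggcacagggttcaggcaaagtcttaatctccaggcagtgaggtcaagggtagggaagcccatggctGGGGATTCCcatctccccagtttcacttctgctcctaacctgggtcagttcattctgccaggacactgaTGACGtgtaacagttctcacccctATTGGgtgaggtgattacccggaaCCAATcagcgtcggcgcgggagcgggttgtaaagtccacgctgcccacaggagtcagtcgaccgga
B2m (chr2:122147437-122147736, plus strand): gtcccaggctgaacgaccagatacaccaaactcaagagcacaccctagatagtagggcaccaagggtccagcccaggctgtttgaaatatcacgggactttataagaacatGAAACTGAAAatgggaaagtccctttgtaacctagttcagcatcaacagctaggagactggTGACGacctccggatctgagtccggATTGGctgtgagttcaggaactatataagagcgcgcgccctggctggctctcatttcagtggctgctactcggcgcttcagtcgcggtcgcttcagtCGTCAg
Tap1 (chr17:34187306-34187605, plus strand): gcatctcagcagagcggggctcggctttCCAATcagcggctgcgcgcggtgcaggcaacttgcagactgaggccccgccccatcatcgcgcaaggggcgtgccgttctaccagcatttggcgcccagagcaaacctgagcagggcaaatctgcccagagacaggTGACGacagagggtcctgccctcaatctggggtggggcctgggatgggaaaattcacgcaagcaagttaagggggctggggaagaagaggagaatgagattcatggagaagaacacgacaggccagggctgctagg
CCAAT occurred in 7 of the 8 windows, against 37.9% of 27025 promoter windows in the RefSeq table, and TGACG in 5 of the 8 windows, against 21% of them. GGGNNTTCC occurred in 3 of the 8 windows, against 5.72% (H2-K1, H2-D1 and H2-Q7), and the GAAA repeat in 3 of the 8 windows, against 3.49% (H2-T23, B2m and Erap1). The H2-K1 window was 85.3% identical to that of H2-Q7 and 90.4% identical to that of H2-D1 over the aligned columns. Only exact matches were counted. Close variants stand unmarked, such as tttcacttct in the H2-K1 and H2-Q7 windows and gggaaagtccc in that of B2m. A window without a match may therefore still hold an element of that type. A match describes these letters and is not evidence that a factor was bound.

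In WT cells the transcripts covered a wide range of levels per kilobase of exon. B2m was highest at 686 ± 20.2 CPM per kb (SD, n = 3 here and below), followed by H2-D1 at 341 ± 8.63 and H2-K1 at 297 ± 7.03 CPM per kb. H2-T23 stood at 77.8 ± 3.10, Tap1 at 44.3 ± 0.359, Tapbp at 24.6 ± 1.65 and Tap2 at 20.9 ± 0.340 CPM per kb. Erap1 had 9.91 ± 0.341, Nlrc5 6.80 ± 0.532 and H2-Q7 0.793 ± 0.873 CPM per kb. The light chain and the classical heavy chains thus led the order, and no neighbours in it overlapped within 1 SD. The share of H2-K1 and H2-D1 together was taken of the class I heavy chain counts of the H2-K, H2-D, H2-Q, H2-Bl and H2-T genes. It was 80.97% to 82.7% in KO_sg4 libraries, 81.1% to 81.3% in KO_sg1, 86.03% to 86.3% in KD and 80.9% to 81.5% in WT.

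**Figure D1:**
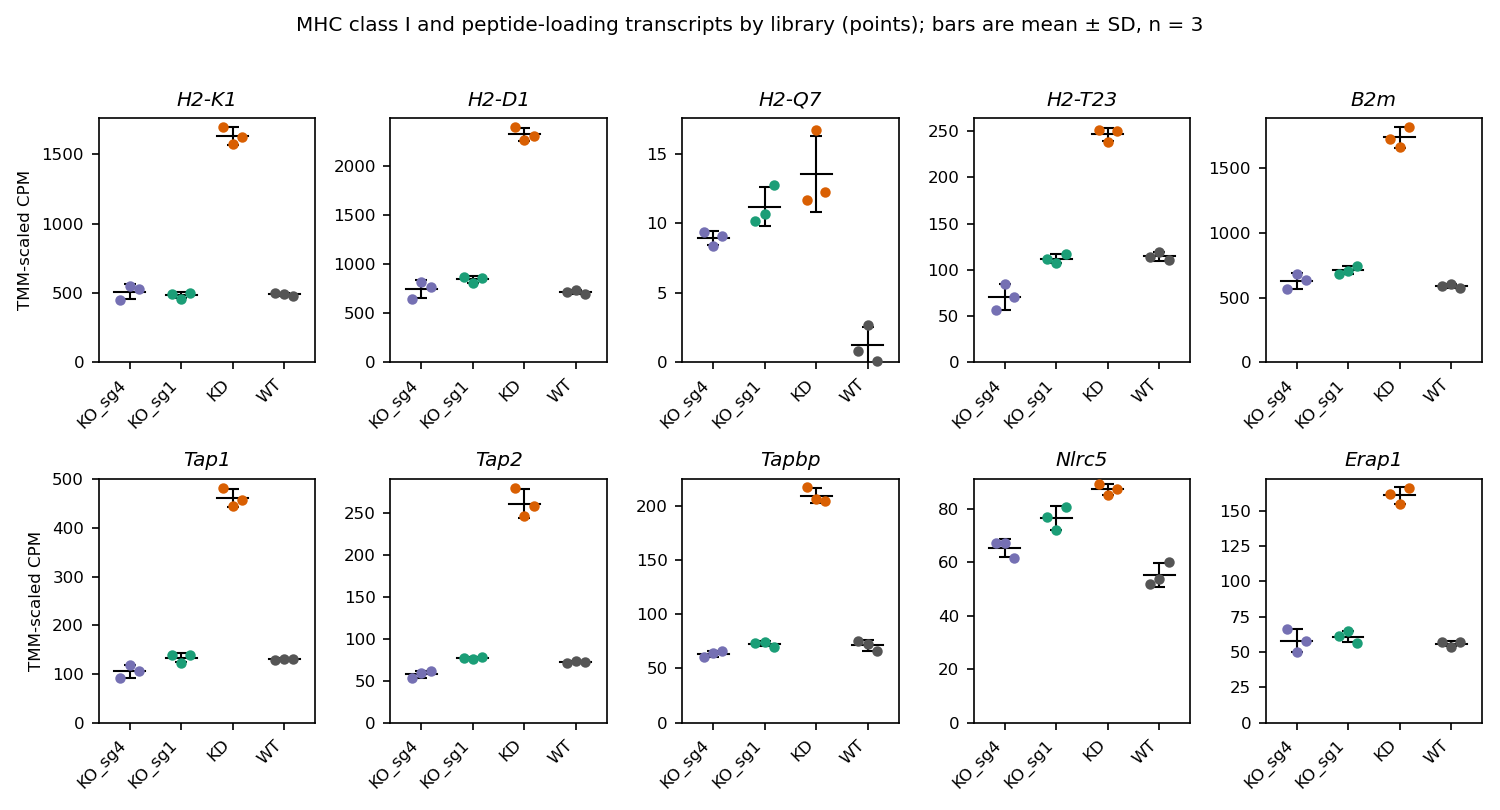
TMM-scaled CPM of the 10 genes (vertical axes, linear and starting at 0) in the 3 libraries of KO_sg4, KO_sg1, KD and WT; points are libraries and bars the mean ± SD, cut at 0 for H2-Q7 in WT. Every KD library stands above every WT library for each gene. In H2-Q7 and Nlrc5 the KO libraries do so as well.

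KD cells were compared with WT cells to ask how a hairpin against Phf6 changed the class I pathway. All 10 genes were higher in KD, by 0.66 (Nlrc5) to 3.42 (H2-Q7) on the log2 scale. Of all genes tested, 37.2% were higher and 40.4% lower, 77.6% in either direction, so that a call by itself is common in this comparison. The median log2 fold change was 1.63 over the 10 genes and -0.011 over all genes tested.

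The classical heavy chains rose by similar amounts. H2-K1 had 1698, 1574 and 1626 CPM in KD libraries, against 503, 490.3 and 479 CPM in WT libraries, a log2 fold change of 1.73 ± 0.073 (adjusted p = 8.87e-11). H2-D1 had 2395, 2265 and 2303 CPM in KD, against 720.3, 732 and 697 CPM in WT, a change of 1.70 ± 0.077 (adjusted p = 1.67e-10). For both genes every KD library lay more than 3-fold above every WT library. H2-T23 rose less, with 251, 238 and 249.98 CPM in KD against 114, 119 and 110.2 CPM in WT (log2 fold change 1.11 ± 0.10, adjusted p = 1.97e-07). Near-identical H2 genes share reads, so the 18 rows of the H2-K, H2-D, H2-Q, H2-Bl and H2-T genes were also summed. The H2-M genes are not in this heavy chain sum. This sum averaged 4589 ± 143 CPM in KD and 1487 ± 28.9 CPM in WT (SD, n = 3 each), a log2 fold change of 1.63 ± 0.076, adjusted p = 2.07e-10. Without TMM scaling, the 10 genes together made up 0.789% to 0.821% of the counts of KD libraries, against 0.219% to 0.228% of those of WT libraries.

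The light chain and the loading machinery rose alongside. B2m had 1726, 1667 and 1822 CPM in KD, against 588, 609 and 574 CPM in WT, a log2 fold change of 1.56 ± 0.071 (adjusted p = 1.61e-10). Tap1 had 482, 444 and 458 CPM in KD and 129.6, 132 and 131 CPM in WT (log2 fold change 1.82 ± 0.079, adjusted p = 1.19e-10). Tap2, whose product pairs with TAP1 to form the transporter, had 279.7, 246 and 258 CPM in KD and 71.1, 73.4 and 71.7 CPM in WT (log2 fold change 1.86 ± 0.063, adjusted p = 1.92e-11). Both transporter genes stood more than 3-fold higher in every KD library than in any WT library. Tapbp, which encodes tapasin, had 217, 206 and 204 CPM in KD, against 75.3, 72.4 and 65.9 CPM in WT (log2 fold change 1.55 ± 0.060, adjusted p = 4.53e-11). Erap1 had 162, 155 and 167 CPM in KD, against 57.2, 53.7 and 56.9 CPM in WT (log2 fold change 1.53 ± 0.085, adjusted p = 1.09e-09). The trimming enzyme and tapasin thus rose about as much as B2m. Nlrc5 had 89.1, 84.9 and 87.4 CPM in KD, against 51.8, 53.7 and 60.05 CPM in WT (log2 fold change 0.66 ± 0.066, adjusted p = 4.5e-07), the smallest change of the 10 genes.

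**Figure D2:**
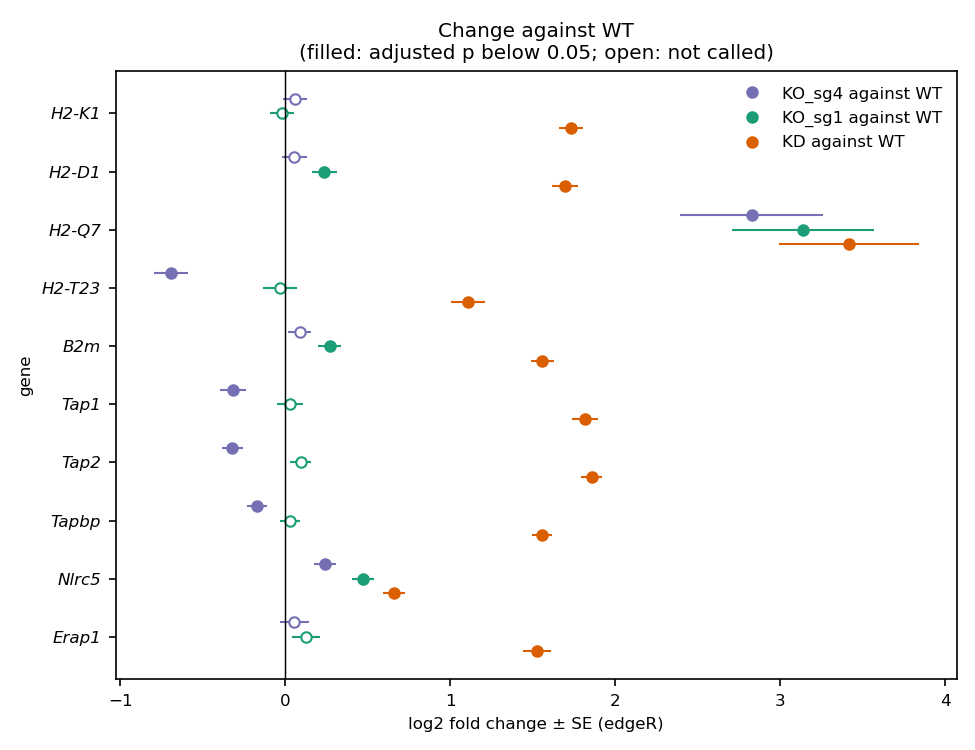
Log2 fold change ± SE (horizontal axis) of each of the 10 genes against WT in KO_sg4, KO_sg1 and KD; filled points passed an adjusted p of 0.05 and open points did not. The KD values lie between 0.66 and 3.42, whereas in the KO groups only H2-Q7 exceeds 1 in size.

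The wider class I pathway did not move as one block in KD. Of 10 tested chaperones and quality-control factors of the endoplasmic reticulum, 10 were higher and 0 lower. Ganab, the catalytic subunit of glucosidase II, rose by 1.75 ± 0.067, and Bcap31, a membrane protein that takes part in export from the endoplasmic reticulum, by 1.71 ± 0.067. Uggt1, which reglucosylates misfolded glycoproteins, rose by 1.57 ± 0.047, and the chaperone gene Hspa5 (BiP) by 1.53 ± 0.063. The peptide-generating step went the other way. All 8 tested genes of the immunoproteasome and the proteasome activators were lower in KD, as were all 3 constitutive catalytic subunits. Pomp, a proteasome assembly factor, fell by 1.33 ± 0.084, and the immunoproteasome subunit gene Psmb10 fell by 1.04 ± 0.11. Psme3, an activator subunit, fell by 0.999 ± 0.057, and Psme1, another one, fell by 0.88 ± 0.087. The constitutive subunit genes Psmb7, Psmb6 and Psmb5 had log2 fold changes of -1.13 ± 0.067, -1.09 ± 0.11 and -0.87 ± 0.10. Among 8 tested peptidases linked to the pathway, 1 was higher and 6 were lower. The peptidase that rose was Lnpep (1.77 ± 0.16), a membrane-anchored aminopeptidase of endosomes, while the leucine aminopeptidase gene Lap3 (-1.16 ± 0.059), the bleomycin hydrolase gene Blmh (-0.94 ± 0.062) and the insulin-degrading enzyme gene Ide (-0.94 ± 0.074) fell. Of 15 other tested class I and class I-like genes, 12 were higher and 1 lower in KD, against 37.2% and 40.4% of all genes. Among them H2-Q4 rose by 1.70 ± 0.088 and Hfe, a regulator of iron uptake, by 1.67 ± 0.12.

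The direction in KD went with a property of the coded protein. Proteins were sorted by whether a stretch of 19 residues had a mean Kyte-Doolittle hydropathy of at least 1.6, a value that marks many signal peptides and membrane spans. Of the 3507 tested genes with such a segment, 66.2% were higher and 16.1% lower in KD, with a median log2 fold change of 0.86. Of the 7022 tested genes whose protein has none, 21.2% were higher and 55.3% lower, with a median of -0.33. Among 54 tested genes of the class I pathway, 29 of 30 with a segment were higher and 0 lower, with a median of 1.53. Of the 20 without one, 1 was higher and 17 were lower, with a median of -0.83. The other 4 had no matched protein (H2-K2, H2-Q8 and H2-Q9, which were higher, and H2-T9, which was lower). The exception that rose was Nlrc5, whose most hydrophobic stretch averaged 1.589, just under the threshold, while the other 9 genes held a segment. When libraries were scaled and tested on the segment-coding genes alone, a step added after the data were seen, those 9 genes were still called higher in KD than in WT. Relative to that group of genes the log2 fold changes ran from 0.28 ± 0.10 for H2-T23 (adjusted p = 0.0242) to 2.59 ± 0.42 for H2-Q7. Tap2 stood at 1.03 ± 0.063, Tap1 at 0.99 ± 0.080, H2-K1 at 0.91 ± 0.072, H2-D1 at 0.87 ± 0.076 and B2m at 0.73 ± 0.069 in that fit.

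**Figure D3:**
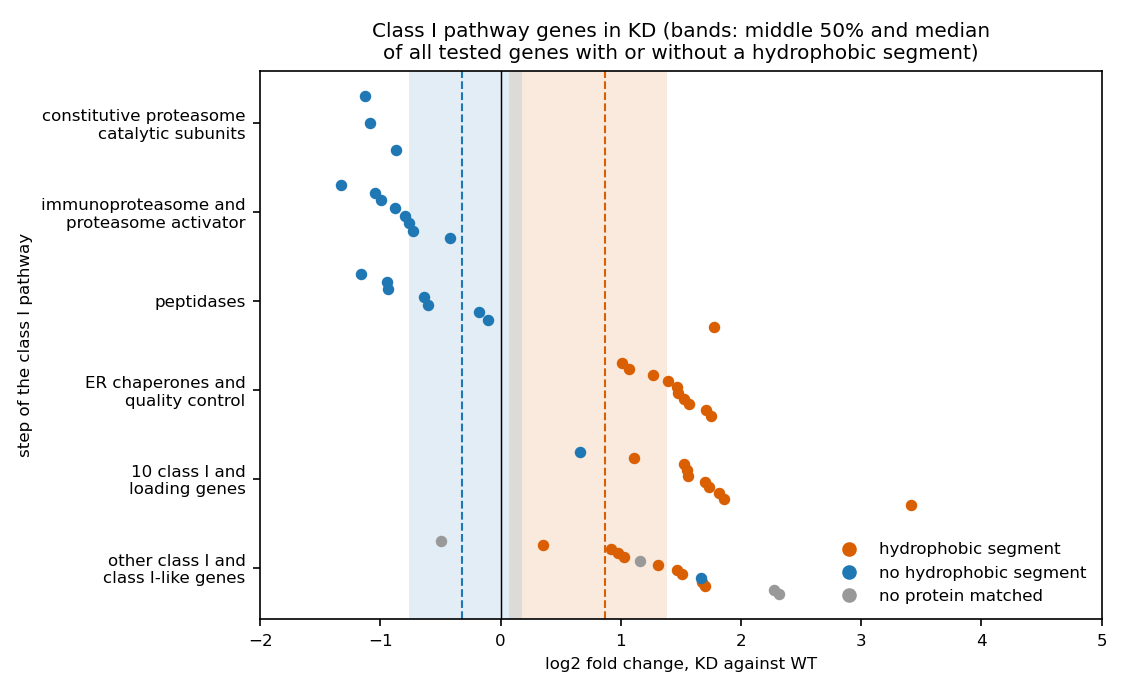
Log2 fold change in KD against WT (horizontal axis) of tested genes at each step of the class I pathway, colored by whether the coded protein holds a hydrophobic segment; bands show the quartile range and lines the median of all tested genes with (0.86) and without (-0.33) a segment. Proteasome genes lie below 0, chaperones and loading genes above it; H2-Q6, at 0 counts in WT, is left out.

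Neighbouring genes on chromosome 17 showed the split side by side. Psmb9, Tap1, Psmb8 and Tap2 follow each other there, so that immunoproteasome and transporter genes alternate; Psmb9 and Psmb8 were picked for this after their values were seen. The annotated starts of Tap1 and Psmb9 lie 226 bases apart, and their 300-base promoter windows share 275 bases, including the CCAAT and TGACG matches in the Tap1 sequence above. Psmb9 had 53.5, 52.1 and 55.4 CPM in KD, against 71.5, 77.01 and 66.7 CPM in WT (log2 fold change -0.42 ± 0.11, adjusted p = 0.00414), while Tap1 rose by 1.82. Psmb8 had 152, 150.1 and 147 CPM in KD, against 256, 262 and 246 CPM in WT (log2 fold change -0.76 ± 0.091, adjusted p = 2.83e-06), while Tap2 rose by 1.86. In all 3 KD libraries each transporter gene lay above, and each proteasome gene below, its whole WT range.

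**Figure D4:**
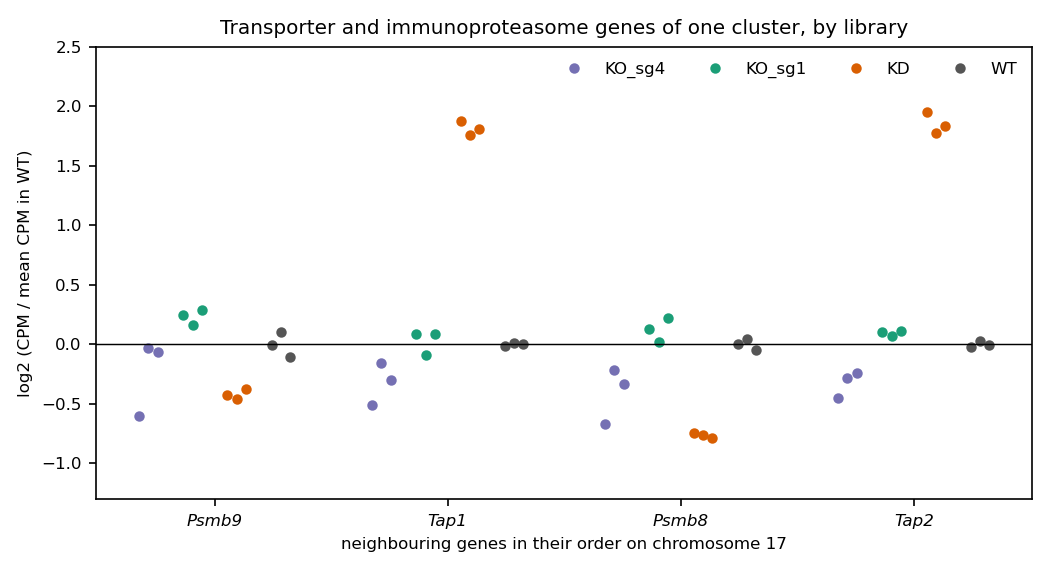
Log2 ratio of CPM to the WT mean (vertical axis) of Psmb9, Tap1, Psmb8 and Tap2, in their order on the chromosome, for each library of KO_sg4, KO_sg1, KD and WT. In KD both transporter genes lie above and both proteasome genes below every WT library.

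The KO cells were compared with WT to ask what changed with loss of Phf6 by either guide. Averaged over both guides, 3 of the 10 genes were higher and 1 lower than in WT, against 17.7% higher and 23.8% lower (41.5% in either direction) over all genes tested. H2-Q7 (2.98 ± 0.40, adjusted p = 3.27e-05), Nlrc5 (0.36 ± 0.058, adjusted p = 0.000202) and B2m (0.18 ± 0.060, adjusted p = 0.0285) were higher, whereas H2-T23 was lower (-0.36 ± 0.088, adjusted p = 0.00439). The B2m call was lost without WT replicate 1, 2 or 3 or without KO_sg1 replicate 3, with adjusted p from 0.0512 to 0.0893. The 6 other genes had log2 fold changes between -0.14 and 0.15 and did not pass the test. Among these, H2-D1 was called higher without KO_sg4 replicate 1 (0.20, adjusted p = 0.000944). With all libraries it was called higher with DESeq2 (0.18, adjusted p = 0.0204), with relative log expression factors in place of TMM (0.18, adjusted p = 0.0407) and in the fit on segment-coding genes (0.21, adjusted p = 0.0164). Tap1 was called lower without KO_sg4 replicate 2 (-0.19, adjusted p = 0.0161). The median over the 10 genes was 0.055, against -0.0079 over all genes. The heavy chain sum averaged 1540.05 ± 172 CPM in KO_sg4, 1635 ± 70.98 CPM in KO_sg1 and 1487 ± 28.9 CPM in WT, and for both guides together it did not pass the test (0.094 ± 0.065, adjusted p = 0.271). Without KO_sg4 replicate 1 it was called higher (0.14, adjusted p = 0.0124).

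In KO_sg1 cells 4 of the 10 genes were higher and 0 lower than in WT, against 16.9% higher and 21.9% lower (38.8% either way) over all genes. B2m had 681, 709.6 and 746 CPM in KO_sg1, against 588, 609 and 574 CPM in WT (log2 fold change 0.27 ± 0.069, adjusted p = 0.00701). Nlrc5 had 76.97, 71.9 and 80.6 CPM in KO_sg1, against 51.8, 53.7 and 60.05 CPM in WT (log2 fold change 0.47 ± 0.066, adjusted p = 6.73e-05). H2-D1 had 868, 804 and 859 CPM in KO_sg1, against 720.3, 732 and 697 CPM in WT (log2 fold change 0.24 ± 0.075, adjusted p = 0.0239). None of these KO_sg1 ranges overlapped that of WT, although the H2-D1 call was lost without WT replicate 1 or 3 or KO_sg1 replicate 1 or 3 (adjusted p from 0.06 to 0.0807). H2-Q7 was the fourth gene (3.14 ± 0.43, adjusted p = 5.11e-05). H2-K1, with 489.9, 459 and 503 CPM in KO_sg1, had a log2 fold change of -0.020 ± 0.072. H2-T23, with 112, 107 and 117 CPM, had one of -0.033 ± 0.10, and neither passed the test.

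In KO_sg4 cells 2 of the 10 genes were higher and 4 lower than in WT, against 18% higher and 22% lower (40% either way) over all genes. H2-T23 had 56.97, 85.2 and 71.04 CPM in KO_sg4, against 114, 119 and 110.2 CPM in WT (log2 fold change -0.69 ± 0.10, adjusted p = 9.86e-05). Tap1 had 91.9, 118 and 106 CPM in KO_sg4, against 129.6, 132 and 131 CPM in WT (log2 fold change -0.32 ± 0.078, adjusted p = 0.00529). Tap2 had 52.8, 59.4 and 61.01 CPM in KO_sg4, against 71.1, 73.4 and 71.7 CPM in WT (log2 fold change -0.32 ± 0.063, adjusted p = 0.00102). For these genes every KO_sg4 library lay below every WT library. Tapbp had 60.1, 64.1 and 65.8 CPM in KO_sg4, against 75.3, 72.4 and 65.9 CPM in WT, and its call (-0.17 ± 0.060, adjusted p = 0.0373) was lost under 14 alternatives, among them leaving out WT replicate 1 or 2, KO_sg4 replicate 1, KO_sg1 replicate 1 or any KD library. Nlrc5 was higher, with 67.03, 67.2 and 61.4 CPM in KO_sg4 against 51.8, 53.7 and 60.05 CPM in WT (log2 fold change 0.24 ± 0.066, adjusted p = 0.01), a call lost without WT replicate 1 (adjusted p = 0.0562). The transactivator thus stood higher in the cells in which both transporter genes stood lower. H2-Q7 was also higher (2.83 ± 0.43, adjusted p = 0.000121). H2-K1 (0.058 ± 0.071), H2-D1 (0.056 ± 0.075) and B2m (0.088 ± 0.069) did not pass the test with all libraries. Without KO_sg4 replicate 1 they were called higher (H2-K1 0.14, adjusted p = 0.0332; H2-D1 0.15, adjusted p = 0.0238; B2m 0.16, adjusted p = 0.024), which made 5 genes higher.

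The guides were then compared directly. In KO_sg4 against KO_sg1, 0 of the 10 genes were higher and 5 lower, against 13.8% higher and 13.4% lower (27.2% either way) over all genes. H2-T23 had 56.97, 85.2 and 71.04 CPM in KO_sg4 and 112, 107 and 117 CPM in KO_sg1 (log2 fold change -0.66 ± 0.10, adjusted p = 0.00031). Tap1 had 91.9, 118 and 106 CPM in KO_sg4 and 139, 123 and 139 CPM in KO_sg1 (log2 fold change -0.35 ± 0.079, adjusted p = 0.00518). Both genes were lower in every KO_sg4 library than in any KO_sg1 library. Tap2 (-0.42 ± 0.064, adjusted p = 0.000237), Nlrc5 (-0.23 ± 0.066, adjusted p = 0.0204) and Tapbp (-0.20 ± 0.060, adjusted p = 0.0279) were lower too. In a fit of these groups alone the calls of Tap1, Nlrc5 and Tapbp were lost, which left 2 genes lower. The Nlrc5 call was also lost without KO_sg1 replicate 1 or 3 or KO_sg4 replicate 3, and the Tapbp call without KO_sg1 replicate 1 or 2 or KO_sg4 replicate 1. Without KO_sg4 replicate 2, B2m (-0.24, adjusted p = 0.0105) and H2-D1 (-0.25, adjusted p = 0.0128) joined the lower genes, and without KO_sg4 replicate 1 H2-K1 was called higher (0.16, adjusted p = 0.0414). With all libraries B2m was called lower with DESeq2 (-0.20, adjusted p = 0.0182), relative log expression factors (-0.20, adjusted p = 0.0434) and the fit on segment-coding genes (-0.19, adjusted p = 0.0415), and H2-D1 with DESeq2 (-0.20, adjusted p = 0.0373).

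Immunoproteasome genes differed between the guides in the same direction as the transporter genes. Of 8 tested genes of the immunoproteasome and the proteasome activators, 0 were higher and 5 lower in KO_sg4 than in KO_sg1. Over all genes 13.8% were higher and 13.4% lower. The largest differences were Psmb10 at -0.59 ± 0.11, Psmb8 at -0.52 ± 0.091, Psmb9 at -0.45 ± 0.11 and Psme1 at -0.37 ± 0.086. Of 3 constitutive catalytic subunit genes, Psmb5 was lower as well (-0.30 ± 0.099) and 0 were higher. Psmb8 had 160.05, 219 and 203 CPM in KO_sg4 and 278, 259 and 297 CPM in KO_sg1, and these ranges did not overlap. Replicate 1 had the lowest Psmb8, Psmb9 (47.3 CPM) and Psmb10 (58.4 CPM) of KO_sg4, and these calls were not tested without it. Irf1, an interferon-induced activator of class I genes, averaged 14.5 ± 0.440 CPM in KO_sg4 and 20.1 ± 0.556 CPM in KO_sg1 (SD, n = 3 each), a log2 fold change of -0.47 ± 0.064 (adjusted p = 9.11e-05). Irf8, an interferon regulatory factor of lymphoid and myeloid cells, was lower as well (-0.44 ± 0.049).

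The KO cells were also set against KD. Of the 10 genes, 0 were higher and 9 lower in KO, against 40.4% higher and 42.9% lower (83.3% either way) over all genes. The KD libraries also entered KD against WT, as the WT libraries entered each comparison with WT, so the comparisons are not independent of each other. Tap2 (-1.97 ± 0.051), Tap1 (-1.96 ± 0.064) and H2-K1 (-1.71 ± 0.059) had the largest differences, and Nlrc5 the smallest among those called (-0.30 ± 0.056, adjusted p = 0.000165). H2-Q7 did not pass the test (-0.43 ± 0.28, adjusted p = 0.17). It was called lower without WT replicate 2 (-0.42, adjusted p = 0.0394) or WT replicate 3 (-0.45, adjusted p = 0.046) and in a fit of the KO and KD groups alone (-0.44, adjusted p = 0.00542).

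H2-Q7 was higher than WT in KO_sg4, KO_sg1 and KD, as was Nlrc5. It had 9.38, 8.36 and 9.11 CPM in KO_sg4, 10.2, 10.7 and 12.8 CPM in KO_sg1, 11.7, 16.7 and 12.2 CPM in KD and 0.824, 2.71 and 0.117 CPM in WT. The WT libraries held 23.9, 81.3 and 3.49 estimated counts. Every library of the other groups lay more than 3-fold above the highest WT library, but the WT values differed widely among themselves, and WT replicate 3 stood below the 0.354 CPM of the low-count filter. Without WT replicate 2 the log2 fold change of H2-Q7 came to 4.18 in KO_sg4, 4.495 in KO_sg1 and 4.76 in KD. Without WT replicate 3 it came to 2.34 in KO_sg4, 2.66 in KO_sg1 and 2.94 in KD, and it was still called higher in each. For both guides together these values were 4.34 without WT replicate 2 and 2.498 without WT replicate 3. Of 1669 windows of 50 bases in H2-Q7 transcripts, 34.9% also occurred in another gene, so the split of reads among these genes is uncertain. The share was 28.8% for H2-T23, 13.9% for H2-D1 and 6.87% for H2-K1, and no such window was found for B2m, Nlrc5 or Erap1. Windows were searched in GENCODE M21 transcripts only, where no coding transcript was matched for H2-Q8, H2-Q9, H2-K2 or H2-T9. Sharing with these genes may therefore be missing from the shares of the H2 genes.

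The counts of H2-Q6, H2-Q7, H2-Q8 and H2-Q9 were therefore summed, a step added after the data were seen. The sum was 28.7, 34.4 and 32.2 CPM in KO_sg4, 29.7, 26.4 and 28.3 CPM in KO_sg1, 44.2, 40.1 and 42.03 CPM in KD and 7.04, 7.33 and 6.37 CPM in WT. On this scale the WT libraries lay close together and far below all others. The log2 fold change against WT was 2.19 ± 0.087, adjusted p = 8.58e-11, in KO_sg4. In KO_sg1 it was 2.02 ± 0.087, adjusted p = 2.84e-10, and in KD 2.60 ± 0.086, adjusted p = 1.6e-11. Between the guides the sum did not pass the test (0.17 ± 0.077, adjusted p = 0.113), but it was called higher in KO_sg4 without KO_sg4 replicate 1 (0.24, adjusted p = 0.0271). It was lower in KO than in KD (-0.50 ± 0.064, adjusted p = 5.02e-06). Within the sum, H2-Q9 was higher than in WT in KO_sg4 (2.23 ± 0.25), KO_sg1 (2.12 ± 0.25) and KD (2.32 ± 0.25). H2-Q8 was higher in KO_sg4 (0.91 ± 0.16) and KD (2.27 ± 0.15). H2-Q6 had 268 estimated counts over the KO_sg4 libraries, 6.32 over KO_sg1, 61.7 over KD and 0 over WT, where 3 counts over the group would be 0.0355 CPM. Against that floor it was at least 92.3-fold higher in KO_sg4 and at least 19.4-fold higher in KD, by these estimated counts. In KO_sg1 the ratio to the floor was 2.58, but its libraries held only 3.21, 1.56 and 1.55 estimated counts, so no bound is given.

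**Figure D5:**
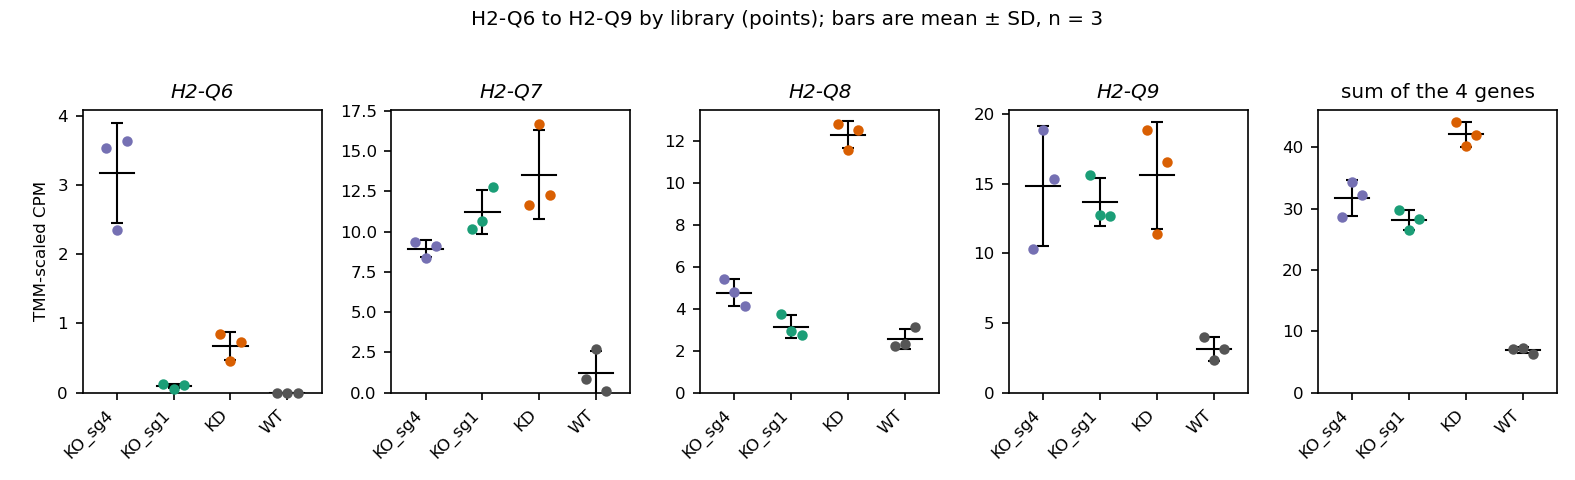
TMM-scaled CPM (vertical axes, starting at 0) of H2-Q6, H2-Q7, H2-Q8, H2-Q9 and of their sum in each library of KO_sg4, KO_sg1, KD and WT; bars are mean ± SD, n = 3. The sum averages 31.7 ± 2.87 CPM in KO_sg4, 28.1 ± 1.64 CPM in KO_sg1, 42.1 ± 2.03 CPM in KD and 6.91 ± 0.491 CPM in WT.

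Other class I genes moved in both directions in the KO cells. Of 15 tested, 5 were higher and 5 lower than in WT, against 17.7% and 23.8% of all genes. Hfe was lower in KO (-0.92 ± 0.11), and Mr1, which presents vitamin B metabolites to MAIT cells, was lower in KO_sg4 (-0.93 ± 0.15). Of 10 chaperones tested, 4 were higher and 1 lower in KO than in WT. Calr, the calreticulin gene of the loading complex, averaged 871 ± 36.4 CPM in KO_sg4, 869 ± 28.3 CPM in KO_sg1, 1763 ± 57.04 CPM in KD and 670.4 ± 21.4 CPM in WT (SD, n = 3). It rose by 0.38 ± 0.048 in KO, and Hspa5 by 0.49 ± 0.055.

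Among regulators of class I genes, 4 of 27 tested transcription factors were higher and 8 lower in KO than in WT, against 17.7% and 23.8% of all genes tested. In KD 7 were higher and 15 lower than in WT, against 37.2% and 40.4% of all genes. Ciita, the class II counterpart of Nlrc5, averaged 0.243 ± 0.0891 CPM in KO_sg4, 0.0615 ± 0.0245 CPM in KO_sg1, 0.346 ± 0.0853 CPM in KD and 1.85 ± 0.423 CPM in WT (SD, n = 3). Its log2 fold change against WT was -2.97 ± 0.30 in KO_sg4, -4.74 ± 0.39 in KO_sg1 and -2.41 ± 0.27 in KD, so Ciita was lower in each group in which Nlrc5 was higher. Rfx5, a subunit of the RFX factor, was lower in KO_sg1 (-0.47 ± 0.11). Ezh2, the methyltransferase of Polycomb repressive complex 2, was lower in KD (-1.10 ± 0.049).

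Interferons are known inducers of class I genes. Of 11 tested genes of the interferon receptors and their signalling, 1 was higher and 4 were lower in KO than in WT, whereas 6 were higher and 1 was lower in KD. Over all genes the shares were 17.7% higher and 23.8% lower in KO, and 37.2% higher and 40.4% lower in KD. Ifngr1, a chain of the interferon gamma receptor, averaged 33.2 ± 0.934 CPM in KO_sg4, 34.8 ± 0.728 CPM in KO_sg1, 189 ± 4.56 CPM in KD and 73.5 ± 3.16 CPM in WT (SD, n = 3). On the log2 scale it fell by 1.11 ± 0.043 in KO (adjusted p = 5.75e-11) and rose by 1.36 ± 0.050 in KD (adjusted p = 3.14e-11). Socs3, a feedback inhibitor of cytokine signalling, fell by 1.78 ± 0.050 in KO and rose by 0.66 ± 0.055 in KD. Of 24 tested interferon-induced genes, 3 were higher and 10 lower in KO (median log2 fold change -0.057). In KD 7 were higher and 7 lower, with a median of 0.063, so that both counts stand beside the same shares over all genes. Bst2, which encodes the antiviral surface protein tetherin, fell by 0.86 ± 0.098 in KO and rose by 1.11 ± 0.11 in KD. Ifih1, a sensor of double-stranded RNA, fell by 1.03 ± 0.14 in KO. The antiviral synthetase gene Oas2 (1.89 ± 0.25) and the GTPase gene Igtp (1.25 ± 0.080) rose in KD.

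The patterns of the 10 genes over the groups were compared by the root mean square difference of group means of log2 CPM, after each gene was centred on its own mean. Tap1 and Tap2 were the most alike pair at 0.029, followed by B2m and Erap1 at 0.056 and by H2-D1 with B2m at 0.071. H2-T23 differed from each of the other 9 by at least 0.24, Nlrc5 by at least 0.45 and H2-Q7 by at least 1.44. A search then covered 8616 other tested genes with a mean of at least 5 CPM, without placeholder symbols such as Rik or Gm names. Those most like B2m were Tmed9 (0.019), Por (0.038) and Tmem165 (0.039). The genes most like Tap1 were Degs1 (0.033), Manba (0.067) and Gpr18 (0.068), and those most like Nlrc5 were Atg9b (0.017), Camta2 (0.041) and Mfng (0.048). Likeness over 4 group means is a description of few points.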

How the data were processed

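RNA was measured in 12 libraries, 3 of each group; per the labels' protocols, mRNA was prepared for sequencing with a TruSeq kit. Per the submitters' processing notes, the authors used Bowtie 1.0.1, RSEM 1.2.12 and the mm9 build; annotation and strand setting: not given in the sources used here. The deposited values are RSEM estimated counts per gene, which share reads among near-identical genes. They were rounded to whole numbers here. Genes were filtered with filterByExpr (minimum count 10), which kept 12335 of 23224. TMM factors and edgeR 4.0.16 (R 4.3.3) gave one quasi-likelihood fit with 4 group means, and adjusted p-values (Benjamini-Hochberg, two-sided) run over all genes tested. The common biological coefficient of variation was 0.0768. Alternatives were other scalings, no filter, a minimum count of 50, DESeq2 1.42.0, limma 3.58.1 (voom), a fit of the groups compared, a replicate block and leaving out each library. Library totals are given in the report.

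The 10 genes and all gene lists were chosen with earlier results of these data known, so a list's count is not independent evidence of its direction. From each list, up to 4 called genes with the largest change and at least 1 CPM in a group were named per comparison; Psmb8 and Psmb9 in KD were named outside that rule after their values were seen. Hydrophobic segments come from GENCODE M21 proteins on GRCm38, matched by symbol for 18557 of 23224 genes. Promoters come from RefSeq for GRCm38.p6, and the deposited table itself holds no coordinates. Libraries with the same replicate number did not deviate together, so numbers were not treated as pairs.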

Additional observations from a re-analysis of the deposited data

Results flagged for a closer look

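KO_sg4 and KO_sg1 differed for the genes below, by edgeR's test of KO_sg4 against KO_sg1 at an adjusted p below 0.05; values are log2 differences, KO_sg4 minus KO_sg1. Of the 10 class I genes these were H2-T23 (-0.66), Tap1 (-0.345), Tap2 (-0.416), Tapbp (-0.197) and Nlrc5 (-0.229). Proteasome genes were Psmb8 (-0.521), Psmb9 (-0.445), Psmb10 (-0.59), Psme1 (-0.368), Pomp (-0.24) and Psmb5 (-0.302), all lower in KO_sg4. Other class I and class I-like genes were H2-Q4 (0.307), H2-Q6 (5.06), H2-Q8 (0.598), H2-Q1 (-1.29), H2-M3 (-0.33) and Mr1 (-0.637). Chaperone genes were Tapbpl (-0.369), Erp29 (-0.257) and Pdia6 (-0.17), and the peptidase gene was Npepps (0.293). Among transcription factors the values were Irf1 (-0.468), Irf8 (-0.439), Rfx5 (0.427), Nfya (0.26) and Ciita (1.77), and among interferon receptor and signalling genes Ifnar1 (-0.138), Ifnar2 (-0.344), Socs1 (-0.49) and Socs3 (-0.313). Of the interferon-induced genes, Oas1a (4.91) and Ifit2 (0.669) were higher in KO_sg4, whereas Gbp3 (-0.578), Ifi47 (-0.271) and Igtp (-0.243) were lower. The class II pathway gave H2-DMa (-1.32), H2-DMb1 (-1.33), H2-DMb2 (-1.11), Cd74 (0.447) and Ctss (0.586). The NK-cell ligand list gave Raet1a (1.27) and Raet1e (9.07), the latter a fitted size with a standard error of 0.70. The NK-cell markers Klrb1c (2.08) and Klrd1 (1.89) were higher in KO_sg4, as was Phf6 itself (3.45). The part of these markers and of the Phf6 transcript level in the other differences was not tested. Some values in the list rest on few counts. Ciita averaged 0.243 CPM in KO_sg4 and 0.0615 CPM in KO_sg1, and H2-Q1 averaged 0.207 CPM in KO_sg4 and 0.554 CPM in KO_sg1. H2-Q6 averaged 3.17 CPM in KO_sg4 and 0.0972 CPM in KO_sg1.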

How the results depend on the processing

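In KD against WT, all 209 of 209 gene and setting combinations for the 10 genes kept their direction and call under the scalings, filters, tools and left-out libraries tried. Direction and call both held for 196 of 209 in KO against WT, 192 in KO_sg1, 189 in KO_sg4, 187 between the guides and 205 in KO against KD. Signs turned for 2 values in KO, 12 in KO_sg1, 2 in KO_sg4, 2 between the guides and 1 in KO against KD, and for 2 of the heavy chain sum, none of which passed the test before or after. These were H2-K1 (-0.0094 with library totals, -0.0085 to 0.066 with 1 library left out, turning without KO_sg4 replicate 2) in KO and H2-K1 (0.021 with relative log expression factors, 0.021 with DESeq2, 0.048 with the segment-coding fit, -0.048 to 0.018 with 1 library left out, turning without KO_sg1 replicate 2), H2-T23 (0.0087 with relative log expression factors, 0.0092 with DESeq2, 0.035 with the segment-coding fit, -0.062 to 0.00057 with 1 library left out, turning without KO_sg1 replicate 2), Tap1 (-0.054 with library totals, -0.00030 to 0.086 with 1 library left out, turning without KO_sg1 replicate 1) and Tapbp (-0.053 with library totals, -0.018 to 0.070 with 1 library left out, turning without WT replicate 3) in KO_sg1. In KO_sg4 they were Erap1 (-0.045 to 0.15 with 1 library left out, turning without KO_sg4 replicate 1), H2-D1 (-0.015 to 0.15 with 1 library left out, turning without KO_sg4 replicate 2) and the heavy chain sum (-0.020 to 0.14 with 1 library left out, turning without KO_sg4 replicate 2), between the guides Erap1 (0.050 with library totals, -0.18 to 0.026 with 1 library left out, turning without KO_sg4 replicate 2) and the heavy chain sum (0.022 with library totals), and in KO against KD H2-Q7 (0.46 with the segment-coding fit). With library totals in place of TMM factors, 3 of the 10 genes were lower in KO than in WT, and between the guides 1 was higher and 3 were lower. A fit of the groups compared left 2 lower between the guides, where calls over all genes came to 1595 against 3359, and a fit on segment-coding genes left 1 higher in KO_sg4, since Nlrc5, which has no segment, is not in that fit. Library totals moved the median of all genes to 0.21 in KD, 0.13 between the guides and -0.29 in KO against KD (-0.20 with no filter), and in KD the share of calls that were higher to 59.7% (47.9% with TMM); that share came to 30% (43.5%) in KO_sg1, 72.9% (50.6%) between the guides and 37.3% (48.5%) in KO against KD. The heavy chain sum in KO_sg1 passed the test with DESeq2 (0.18) and with only the groups compared (0.14). Leaving out 1 library at a time gave 1 to 2 genes lower in KO, 1 to 5 higher in KO_sg4, and 0 to 1 higher and 3 to 7 lower between the guides, where calls over all genes ran from 2280 to 5329. The heavy chain sum then ran from 0.059 to 0.14 in KO. It ran from -0.020 to 0.14 in KO_sg4, and from 0.12 to 0.17 in KO_sg1. It passed the test in each without KO_sg4 replicate 1. The H2-Q6 to H2-Q9 sum between the guides ran from 0.11 to 0.24, and came to 0.28 with library totals, which passed the test. The causes of these changes were not tested.

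Correlations of deviations between same-numbered libraries ran from -0.24 to 0.10 over 18 pairs, so the numbers give no pairing. With a replicate block the Tapbp calls were lost in KO_sg4 (-0.17, adjusted p = 0.0637) and between the guides (-0.19, adjusted p = 0.0514), and the block changed no other call of the 10 genes or the sums. With 3 libraries a group and H2-Q7 at 23.9, 81.3 and 3.49 counts in WT, its changes against WT had the largest standard errors of the 10.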

Other observations

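MHC class II genes encode the molecules that present peptides to CD4 T cells. Of 10 tested, 1 was higher and 7 were lower in KO than in WT, whereas 5 were higher and 4 lower in KD than in WT; of all genes 17.7% were higher and 23.8% lower in KO, and 37.2% higher and 40.4% lower in KD. Cd74, the invariant chain, averaged 13.4 ± 1.42 CPM in KO_sg4, 9.80 ± 0.127 CPM in KO_sg1, 197 ± 7.26 CPM in KD and 247 ± 14.7 CPM in WT (SD, n = 3), with a log2 fold change of -4.43 ± 0.060 in KO. The class II chain gene H2-Aa had a log2 fold change of -4.41 ± 0.14 in KO by edgeR's test. Of 5 tested genes for ligands of NK-cell receptors, 3 were higher and 2 lower in KD, beside the same shares of all genes. Those that fell were the NKG2D ligand genes Raet1e (-1.17 ± 0.29) and Raet1a (-1.05 ± 0.35). Against WT, Raet1e was also lower in KO_sg1 (-8.33 ± 0.78) but higher in KO_sg4 (0.74 ± 0.25), and Raet1a was lower in KO_sg1 (-1.07 ± 0.36). The size of the Raet1e change in KO_sg1 is a fitted value and is not read here as a measured fold. Pvr, a ligand of DNAM-1 and TIGIT, rose by 1.42 ± 0.11 in KD and fell by 1.29 ± 0.11 in KO, while Cd48 (1.42 ± 0.077) and Clec2d (1.19 ± 0.082), the ligand of an inhibitory NK receptor, rose in KD.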
